A study of Mus musculus with 2 samples.

Results

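The 8 genes described here encode the machinery by which a noradrenergic neuron is specified and makes, stores, retrieves and degrades its transmitter. They were taken from the deposited table by symbol (Phox2a, Gch1, Th, Ddc, Dbh, Slc18a2, Slc6a2 and Maoa), and all 8 had a row among 22423 genes. The tissue sequenced was C57BL/6 cerebellum taken on postnatal day 3. The control carried floxed, undeleted Prdm16 (Prdm16fl/fl), and the other genotype was a Prdm16 conditional knockout (cKO). The labels name no Cre driver, deleted exon, sex or number of animals, and triplicates are mentioned in the design, but the table holds 1 column of counts per genotype. A column is taken here for 1 library, so no difference below has a replicate check and no test of genotype was possible. The genes were chosen with these 2 libraries' values known, so their ratios are a description.

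Noradrenaline is made from tyrosine in steps. Tyrosine hydroxylase (Th), which needs the cofactor tetrahydrobiopterin made through GTP cyclohydrolase 1 (Gch1), forms L-DOPA, aromatic L-amino acid decarboxylase (Ddc) forms dopamine, and dopamine beta-hydroxylase (Dbh) forms noradrenaline inside vesicles that the vesicular monoamine transporter (Slc18a2) fills. The noradrenaline transporter (Slc6a2) takes the released transmitter back up, monoamine oxidase A (Maoa) degrades it, and the paired-like homeodomain factor Phox2a is required for noradrenergic neurons of the locus coeruleus to form. The cerebellum receives noradrenergic axons, and their cell bodies lie in the brainstem, chiefly in the locus coeruleus of the dorsal pons, next to the cerebellum. Dbh and Slc6a2 are largely restricted to noradrenergic and adrenergic cells, whereas Ddc and Slc18a2 also serve serotonergic and other monoamine cells, Slc18a2 is made by mast cells, and Gch1 and Maoa are made in many cell types.

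The upstream sequences of 4 of these genes are shown because Th and Dbh were the best covered biosynthetic genes that were lower in the cKO library, and Slc18a2 and Maoa the best covered that were not. They are the 250 bases before the gene start from RefSeq on GRCm38.p6, written 5′ to 3′ on the gene's strand, whereas the counts were made on mm9 according to the submitters' notes. Of the 8 genes, 7 matched the promoter table, and Slc6a2 is named only. Th lies at chr7:142899996-142900245 on the minus strand, Dbh at chr2:27165257-27165506, Slc18a2 at chr19:59260628-59260877 and Maoa at chrX:16619448-16619697, these last 3 on the plus strand. Capitals mark ATTA, the core bound by many homeodomain proteins, and TGACGTCA, the cyclic AMP response element, each searched on both strands.
Th: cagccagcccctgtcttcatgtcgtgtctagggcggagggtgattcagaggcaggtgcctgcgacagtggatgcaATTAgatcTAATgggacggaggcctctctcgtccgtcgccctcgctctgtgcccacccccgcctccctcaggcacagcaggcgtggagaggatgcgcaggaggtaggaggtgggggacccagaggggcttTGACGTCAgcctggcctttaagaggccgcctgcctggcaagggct
Dbh: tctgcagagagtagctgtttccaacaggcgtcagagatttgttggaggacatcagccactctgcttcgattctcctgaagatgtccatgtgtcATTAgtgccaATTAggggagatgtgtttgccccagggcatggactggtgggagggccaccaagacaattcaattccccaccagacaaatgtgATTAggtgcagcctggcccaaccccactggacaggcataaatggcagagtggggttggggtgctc
Slc18a2: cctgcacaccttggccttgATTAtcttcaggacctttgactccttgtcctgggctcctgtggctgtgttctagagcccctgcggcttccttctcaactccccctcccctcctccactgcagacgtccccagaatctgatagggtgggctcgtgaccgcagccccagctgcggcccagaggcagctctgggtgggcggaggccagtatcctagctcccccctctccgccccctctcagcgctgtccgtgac
Maoa: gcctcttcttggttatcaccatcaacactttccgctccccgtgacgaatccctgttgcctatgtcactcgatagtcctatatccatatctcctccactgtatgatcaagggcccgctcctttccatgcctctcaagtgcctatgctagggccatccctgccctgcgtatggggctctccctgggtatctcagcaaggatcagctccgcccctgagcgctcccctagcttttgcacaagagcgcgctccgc
The Dbh window held 3 ATTA cores and the Th window 2, at 175 to 172 and 167 to 164 bases before the start. Slc18a2 held 1 and Maoa 0. The full cyclic AMP response element stood in Th, at 45 to 38 bases before the start, and in no window of the other 6 matched genes. Among 32817 windows of the same length, 54.9% held at least 1 ATTA and 1.55% held TGACGTCA. The Phox2a and Gch1 windows held 0 cores. The first listed Ddc start held 3, as many as Dbh, although Ddc was not lower in the cKO library. Whether the cores go with the ratios was not tested. These letters describe the windows and mark no measured binding.

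Reads over genes numbered 18600299 for the control library and 17501279 for the cKO library. Levels are CPM, counts scaled to the library total and corrected with the TMM (trimmed mean of M values) factor, with exact Poisson 95% intervals, and differences are log2 ratios of the cKO over the control with an exact binomial 95% interval. Both intervals cover counting error only. A gene was called when it had at least 10 reads over both libraries, differed at least 2-fold and had an interval that excluded 0. Of 18787 genes compared, 2.2% were lower and 1.21% were higher in the cKO library, and the median log2 ratio was 0.01. The targeted gene Prdm16 had 315 and 118 reads, a log2 ratio of -1.30 (-1.62 to -0.99). On the choroid plexus list 12 of 14 genes were lower, and its summed reads went from 107529 to 1003. The control had 14779 reads of Xist against 21 in the cKO, and the Y-linked genes had 7 against 2352, so the libraries also differed in sex pattern.

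Of the 7 catecholamine genes with enough reads, 3 were lower in the cKO library, 0 were higher and 4 passed in neither direction, beside the 2.2% called lower over all genes. The 3 were Th, Dbh and Slc6a2, and the 4 were Gch1, Ddc, Slc18a2 and Maoa. The median log2 ratio of the 7 was -0.47, against 0.01 over all compared genes. Because these genes were picked from this comparison, the count is given with no test. In a bulk sample, fewer cells of a type and less RNA per cell cannot be told apart.

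**Figure D1:**
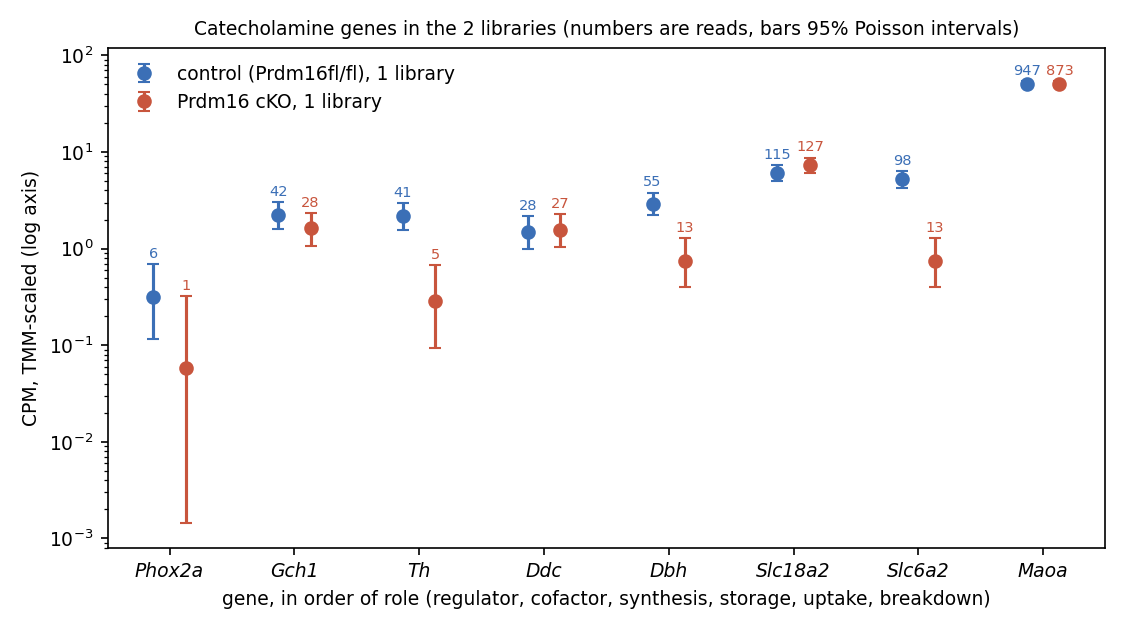
Level of each gene in the control (blue) and Prdm16 cKO (red) library as TMM-scaled CPM on a log axis, with exact Poisson 95% intervals and the read count above each point. Th, Dbh and Slc6a2 were called lower, beside 2.2% called lower over all compared genes. Gch1, Ddc, Slc18a2 and Maoa passed in neither direction, and Phox2a had too few reads. These genes were picked from the same values.

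Phox2a (ENSMUSG00000007946), the regulator among the 8, was barely covered. The control held 6 reads of it and the cKO 1. Its level was 0.319 CPM (0.117 to 0.695) against 0.0577 CPM (0.00146 to 0.322). The intervals overlapped, the log2 ratio of -2.47 (-7.99 to 0.58) did not exclude 0, and the gene fell below the minimum of 10 reads. In the GENCODE M21 annotation its exons overlap those of Inppl1, a lipid phosphatase gene on the opposite strand that had 1228 and 1068 reads. Whether counting used strand is unknown here, so reads of the pair may not be separated.

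Gch1 (ENSMUSG00000037580), which supplies the cofactor of tyrosine hydroxylase, had 42 control reads and 28 cKO reads. Its level was 2.23 CPM (1.61 to 3.02) against 1.62 CPM (1.07 to 2.34), and the intervals overlapped. The log2 ratio was -0.47 (-1.21 to 0.26), so a level 2.32-fold lower in the cKO lies within the counting error. It was the nearest of the uncalled genes to the 2-fold line on the lower side.

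Th (ENSMUSG00000000214), the rate-limiting enzyme of the pathway, had 41 control reads and 5 cKO reads. Its level was 2.18 CPM (1.57 to 2.96) against 0.289 CPM (0.0937 to 0.674), with no overlap of the intervals. The log2 ratio of -2.92 (-4.61 to -1.58) places the cKO library 7.56-fold lower, and counting error spans 2.99-fold to 24.5-fold. Among the compared genes, 88 had a lower ratio.

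Ddc (ENSMUSG00000020182), the decarboxylase that follows Th in the pathway, had nearly equal counts of 28 and 27 reads. The level was 1.49 CPM (0.990 to 2.15) in the control and 1.56 CPM (1.03 to 2.27) in the cKO. The log2 ratio of 0.07 (-0.75 to 0.88) did not overlap the interval of Th. For Ddc, a level up to 1.68-fold lower in the cKO lies within the counting error.

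Dbh (ENSMUSG00000000889), the enzyme that turns dopamine into noradrenaline, had 55 control reads and 13 cKO reads. Its level was 2.93 CPM (2.20 to 3.81) against 0.751 CPM (0.400 to 1.28), with separate intervals. The log2 ratio was -1.96 (-2.96 to -1.07), or 3.90-fold lower, with counting error from 2.10-fold to 7.78-fold. Dbh was the called gene nearest to the 2-fold line, and 204 compared genes, or 1.09%, had its ratio or a lower one.

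Slc18a2 (ENSMUSG00000025094), the vesicular transporter of all monoamines, had 115 control reads and 127 cKO reads. Its level of 6.12 CPM (5.05 to 7.34) in the control overlapped that of 7.33 CPM (6.11 to 8.72) in the cKO. The log2 ratio of 0.26 (-0.11 to 0.64) lay above 0, on the other side from Th and Dbh. An antisense gene, Gm29261, overlaps its exons in GENCODE M21, with the same limit on strand as for Phox2a.

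Slc6a2 (ENSMUSG00000055368), the noradrenaline reuptake transporter, had the most reads of the genes that were lower. The control held 98 of them and the cKO 13. Its level was 5.21 CPM (4.23 to 6.35) against 0.751 CPM (0.400 to 1.28). The intervals were far apart, and the log2 ratio of -2.80 (-3.76 to -1.96) is 6.95-fold lower, with counting error from 3.88-fold to 13.5-fold. Among the compared genes, 100 had a lower ratio.

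Maoa (ENSMUSG00000025037), the mitochondrial enzyme that degrades noradrenaline and serotonin, was by far the best covered. It had 947 control reads and 873 cKO reads, at 50.4 CPM in each. The log2 ratio was 0.00 (-0.13 to 0.13), so the counting interval holds differences of no more than 1.10-fold in either direction. Maoa lies on the X chromosome, and the libraries differed in Xist and the Y-linked genes as given above.

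**Figure D2:**
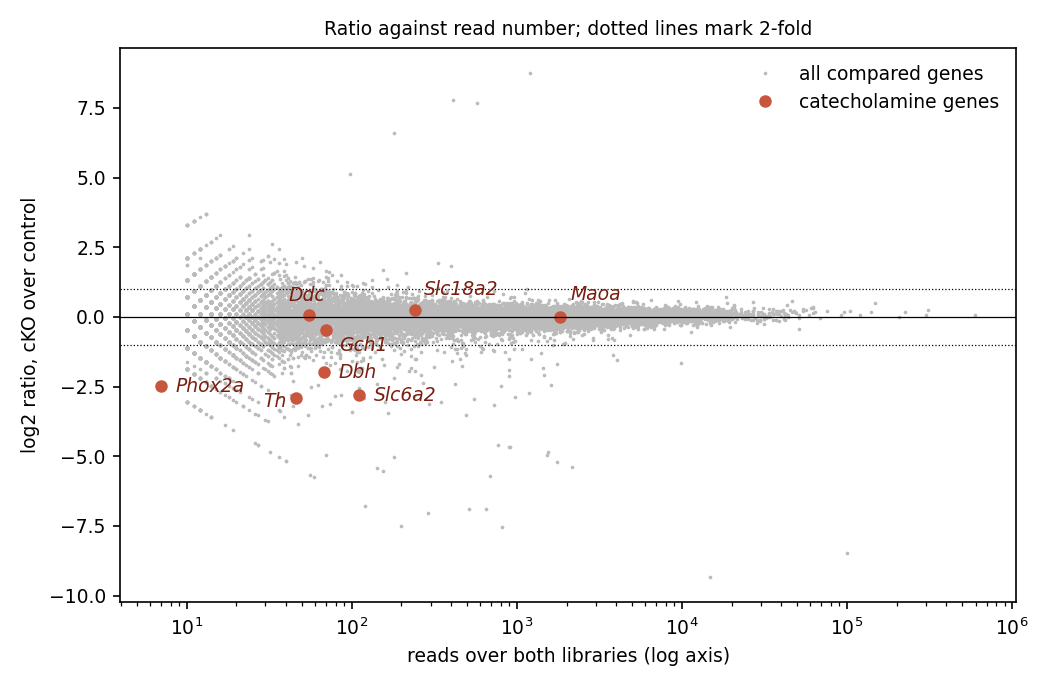
Log2 ratio of the cKO over the control against reads over both libraries (log axis) for all compared genes (grey) and the 8 catecholamine genes (red), with dotted lines at 2-fold. Th, Dbh and Slc6a2 lie below the lower dotted line, Gch1, Ddc, Slc18a2 and Maoa lie between the lines, and Phox2a, with 7 reads, lies left of the 10-read minimum.

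Th, Dbh and Slc6a2 together had 194 control reads and 31 cKO reads. Their sum was 10.3 CPM (8.92 to 11.9) against 1.79 CPM (1.22 to 2.54), a 5.77-fold lower level (3.93 to 8.72). Gch1, Ddc, Slc18a2 and Maoa together had 1132 and 1055 reads, a log2 ratio of 0.02 (-0.11 to 0.14). The genes were put into these sums by their calls in the same comparison, so the gap between the sums is no further evidence.

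The make-up of the 3-gene sum could not be told apart between the libraries with 31 reads in the cKO. Slc6a2 took 50.5% (exact binomial 95% interval 43.3 to 57.8) of the sum in the control and 41.9% (24.5 to 60.9) in the cKO. Dbh took 28.4% (22.1 to 35.2) and 41.9% (24.5 to 60.9), and Th 21.1% (15.6 to 27.6) and 16.1% (5.45 to 33.7). All 3 pairs of intervals overlap. In the cKO library some reads of each gene were left, 5 of Th, 13 of Dbh and 13 of Slc6a2.

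Levels between genes were set side by side per kilobase of exon, with lengths from GENCODE M21. In the control, Maoa stood first at 12.1 CPM per kb. Slc18a2 at 1.17 (0.967 to 1.41), Dbh at 1.09 (0.819 to 1.41), Th at 0.923 (0.662 to 1.25) and Slc6a2 at 0.829 (0.673 to 1.01) CPM per kb followed, and these 4 overlapped within counting error. Gch1 at 0.357 (0.258 to 0.483) and Ddc at 0.334 (0.222 to 0.483) CPM per kb came next and overlapped each other. Phox2a at 0.157 (0.0576 to 0.341) CPM per kb was last and overlapped Ddc and Gch1.

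In the cKO library the order was different. Maoa again stood at 12.1 and Slc18a2 at 1.40 (1.17 to 1.67) CPM per kb, but Slc18a2 no longer overlapped any of Dbh, Th and Slc6a2. Ddc at 0.349 (0.230 to 0.508), Dbh at 0.279 (0.148 to 0.477) and Gch1 at 0.259 (0.172 to 0.374) CPM per kb overlapped. Th at 0.122 (0.0397 to 0.285), Slc6a2 at 0.119 (0.0635 to 0.204) and Phox2a at 0.0284 (0.000718 to 0.158) CPM per kb were the lowest, and each of these intervals overlapped the next. Th thus stood above Ddc in the control and below it in the cKO, without overlap in the control and with overlap in the cKO.

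Other genes of noradrenergic neurons lay on both sides of 0 on the log2 scale. Of 12 measured with enough reads on a list of 15, 1 was called lower and 0 higher, beside 2.2% lower over all genes. The other 11 were uncalled, and the median log2 ratio was -0.16. Slc18a1, the vesicular monoamine transporter of neuroendocrine cells, had 15 and 3 reads, a log2 ratio of -2.20 (-4.63 to -0.38), and this call did not hold with 99% intervals.

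The remaining genes of that list are also expressed by cells other than noradrenergic neurons, and none passed the 2-fold rule. Cyb561, the vesicle cytochrome that supplies electrons to dopamine beta-hydroxylase, had 432 and 261 reads, a log2 ratio of -0.61 (-0.84 to -0.38). Moxd1, a relative of Dbh, had 1069 and 665 reads, at -0.57 (-0.71 to -0.43). The homeobox gene Tlx3 stood at 0.13 (-0.02 to 0.27) and the receptor gene Ret at -0.06 (-0.25 to 0.14). The chromogranin genes Chga at 0.16 (0.08 to 0.25) and Chgb at 0.18 (0.10 to 0.27), whose products pack into dense-core vesicles, were slightly above 0. Cartpt, a neuropeptide precursor gene, was the highest at 0.66 (0.37 to 0.96) with 163 and 238 reads. Prph at -0.54, Hcrtr1 at -0.31, Calca at -0.27 and Gal at 0.53 had intervals that included 0. Pnmt, which converts noradrenaline to adrenaline, had 3 and 4 reads.

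**Figure D3:**
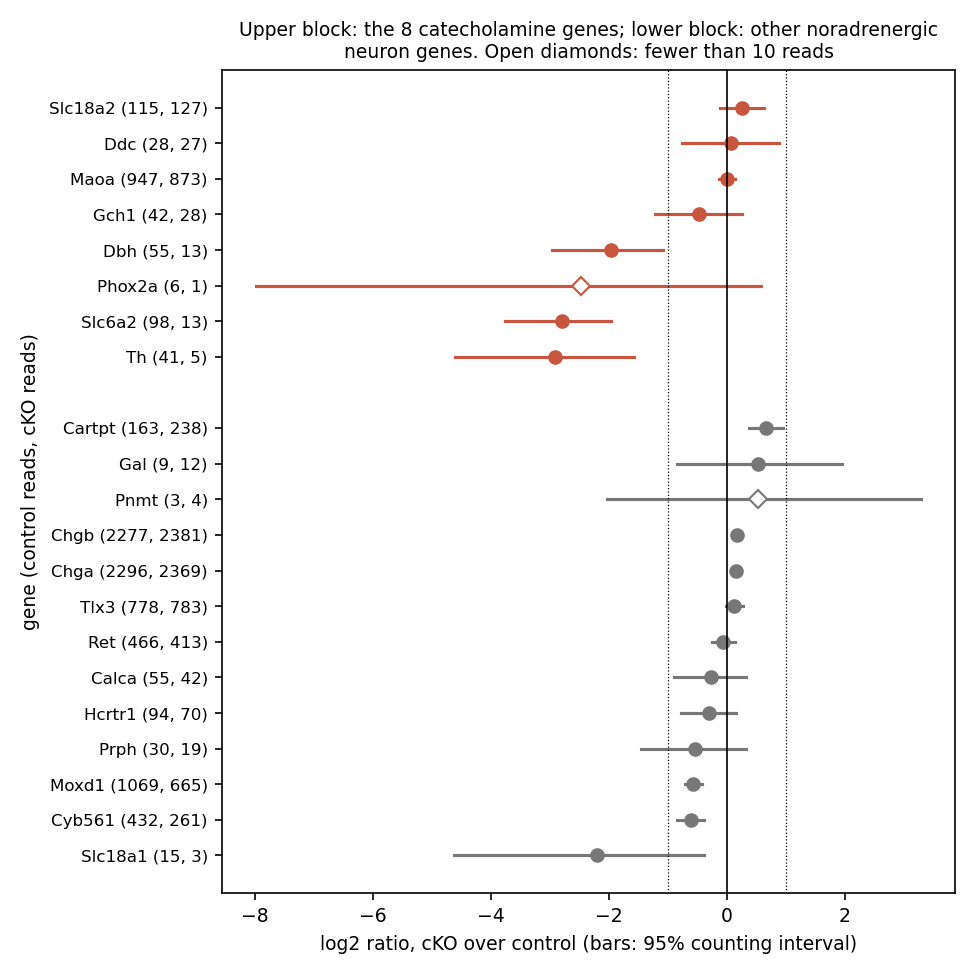
Log2 ratio of the cKO over the control with its exact binomial 95% counting interval for the 8 catecholamine genes (red) and the other noradrenergic neuron genes with a row (grey), with control and cKO reads in parentheses and dotted lines at 2-fold. Th, Slc6a2 and Dbh in the upper block and Slc18a1 in the lower block lie below the line with intervals under 0, and open diamonds (Phox2a, Pnmt) had fewer than 10 reads.

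Genes for cofactor supply showed no call. Of 5 measured genes of tetrahydrobiopterin synthesis and recycling, 0 were lower and 0 higher, with a median log2 ratio of 0.02. Pts, the synthase that follows Gch1, had 607 and 580 reads (0.05, -0.11 to 0.22). Spr, which completes the cofactor, had 558 and 520 (0.02, -0.16 to 0.19), and Qdpr, which recycles it, 349 and 292 (-0.14, -0.37 to 0.09). Pcbd2 had the highest ratio at 1.23 with 6 and 13 reads, but its interval (-0.26 to 2.92) included 0. Gchfr, the feedback regulator of Gch1, had 3 reads in each library.

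Breakdown and low-affinity uptake genes also had 0 lower and 0 higher among 11 measured, with a median log2 ratio of 0.07. Maob, the neighbour and paralog of Maoa, had 81 and 95 reads (0.35, -0.09 to 0.79). The most negative ratios belonged to Slc22a2, an organic cation transporter gene, with 41 and 28 reads (-0.43, -1.18 to 0.30), and Slc29a4, the plasma membrane monoamine transporter gene, with 3494 and 2389 reads (-0.43, -0.51 to -0.35). Slc29a4 is known in choroid plexus, whose list was lower in this library, and the part of that tissue in the Slc29a4 ratio was not tested. Comtd1 was the highest at 0.97 (0.17 to 1.82) with 21 and 38 reads.

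Receptor genes for noradrenaline gave no call. Of 9 adrenergic receptor genes, 0 were lower and 0 higher, with a median log2 ratio of 0.04 and a range from -0.49 to 0.31. Adra2c had 649 and 639 reads (0.10, -0.06 to 0.26) and Adra2a, the main inhibitory autoreceptor of noradrenergic neurons, 372 and 399 (0.22, 0.01 to 0.43). The alpha-1 receptor genes Adra1d (-0.49, -1.10 to 0.11) and Adra1a (-0.46, -0.99 to 0.06) had the most negative ratios, with intervals that included 0. Of 4 measured dopamine receptor genes, 2 were lower at low counts, beside 2.2% lower over all genes. Neither call held with 99% intervals. Drd1 had 15 and 3 reads (-2.20, -4.63 to -0.38) and Drd4 had 29 and 12 (-1.15, -2.26 to -0.14), whereas Drd2 had 73 and 85 (0.34, -0.13 to 0.81) and Drd5 16 and 16.

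Markers of other monoamine cells gave mixed values. For dopaminergic neurons, the dopamine transporter gene Slc6a3 had 7 and 3 reads and the midbrain regulator gene Pitx3 had 2 and 3. Lmx1b, a LIM homeobox factor of dopaminergic, serotonergic and other hindbrain neurons, was lower with 150 and 30 reads (-2.20, -2.82 to -1.63). It was the 1 gene called of 5 measured on the dopaminergic list and of 4 on the serotonergic list. Over all compared genes, 2.2% were called lower. Nr4a2 had 82 and 92 reads and Aldh1a1 120 and 138 on the dopaminergic list. Summed reads were 1010 and 1183 on the dopaminergic list, and 364 and 269 without En1, a homeobox gene also made in the developing cerebellum, which had 646 and 914. They were 381 and 264 on the serotonergic list. The 150 and 30 reads of Lmx1b are in the sums of both lists. On the serotonergic list, Tph2, Slc6a4 and Fev had no row under these symbols, so no reads are given for them. Of the others on that list, Gata2 had 107 and 118 reads, Gata3 had 2 and 8, Htr1a had 115 and 108 and Htr1d had 7 and 0.

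Markers of cells that share single catecholamine genes gave further values. The mast cell protease genes Cpa3, Cma1, Mcpt4 and Tpsb2 together had 75 and 69 reads, a log2 ratio of 0.00 (-0.50 to 0.49), beside the Slc18a2 ratio of 0.26. Hdc, the histamine-forming enzyme, had 73 and 87 reads (0.37, -0.09 to 0.84). On the cholinergic list, 0 of 3 measured genes were called, and summed reads were 92 and 102. Chat had 5 and 1 reads, Slc18a3 had 20 and 20 and Slc5a7 had 59 and 70. On the peripheral nerve and ganglion list, 0 of 5 measured genes were called, with summed reads of 250 and 239.

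**Figure D4:**
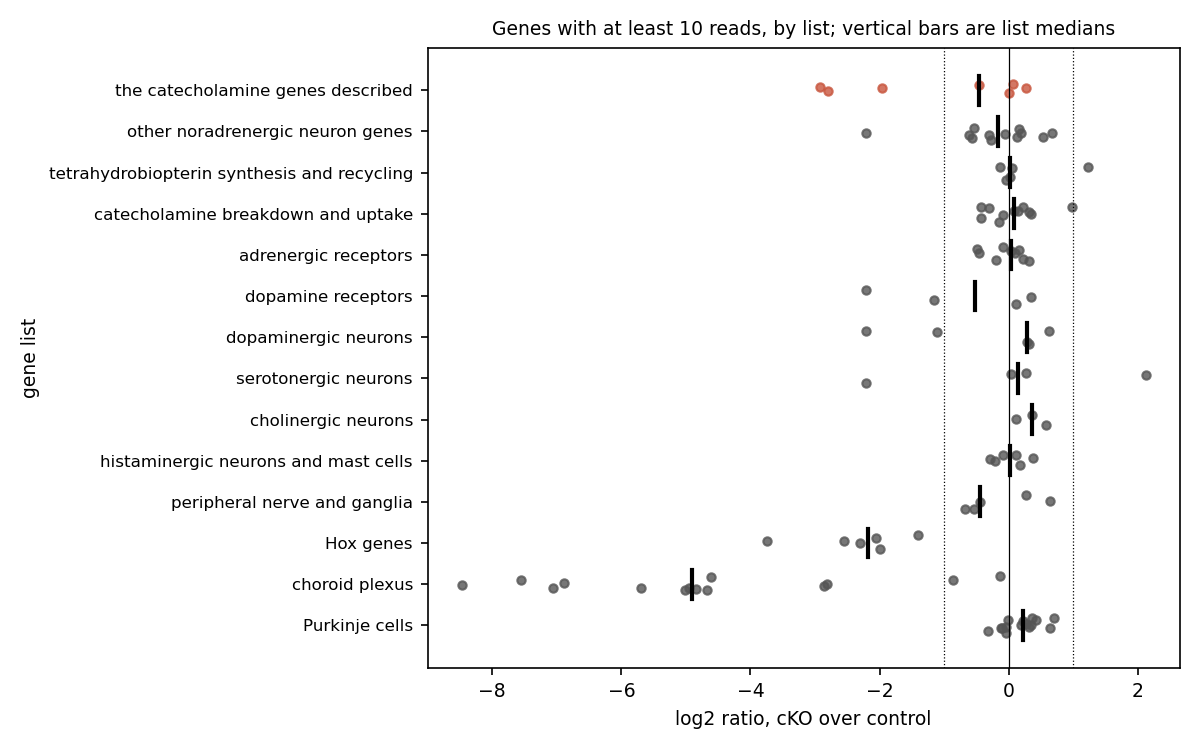
Log2 ratio of the cKO over the control for every gene with at least 10 reads on the catecholamine gene list (red) and 13 other lists (grey), with black bars at list medians and dotted lines at 2-fold. Cofactor, breakdown and adrenergic receptor genes lie around 0, whereas Hox and choroid plexus genes lie mostly below -1, as do 3 of the catecholamine genes.

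The transcripts of other tissues that differed between the libraries are set beside Th, Dbh and Slc6a2. Hox genes, which mark the hindbrain behind the cerebellum, had 140 control reads and 19 cKO reads over 11 genes with a row. Of 6 with enough reads, 5 were lower, beside 2.2% lower over all genes, and none of the 5 reached 50 reads. Hoxa3, Hoxa4 and Hoxa5 had 0 cKO reads, so their ratios rest on a count of 0 standing at 3. The summed level of the Hox genes was 6.79-fold lower (4.19 to 11.6). This range overlaps that of the 5.77-fold (3.93 to 8.72) of the sum of Th, Dbh and Slc6a2. Choroid plexus genes were 98.8-fold lower (92.8 to 105) in their sum, to which Ttr gave 99032 of the 107529 control reads. Single genes of that list ranged in log2 ratio from -8.47 to -0.13, a range that holds the ratios of Th, Dbh and Slc6a2. Meningeal fibroblast genes, with 0 of 14 called, had a median log2 ratio of 0.23, endothelial and mural cell genes, with 0 of 15 called, -0.02, and housekeeping genes 0.12. The part of hindbrain or other adjoining tissue in the ratios of Th, Dbh and Slc6a2 was not tested. With 1 library per genotype, genotype, the content of these tissues and sex pattern cannot be told apart.

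Genes of the main cerebellar neurons gave no call. Purkinje cells, for which Th expression is known in the mature mouse cerebellum, had 0 of 15 listed genes called and a median log2 ratio of 0.21, with Calb1 at 0.35 (0.30 to 0.39) and Car8 at 0.36 (0.32 to 0.41). Granule neuron progenitor genes had 0 of 14 called and a median of 0.12. The part of either cell type in the ratio of Th was not tested.

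The genes with the ratio most like that of Th, Dbh, Slc6a2 and Phox2a were found by distance from their median log2 ratio of -2.63, among genes of 50 or more reads that do not carry a predicted-gene symbol. This measure rests on 2 libraries and so on a single ratio. The median includes Phox2a, which had 7 reads, and is -2.80 over Th, Dbh and Slc6a2 alone. The ranking below uses -2.63. The 5 nearest were Wfdc2 with 49 and 8 reads (-2.50), Col8a1 with 693 and 114 (-2.49), Kcnj13 with 76 and 10 (-2.81), Trpm3 with 1384 and 235 (-2.44) and Tacr3 with 53 and 9 (-2.44). Kcnj13 is on the choroid plexus list, and the other 4 are on no list used here. The lists hold only some genes of each tissue, so this does not place the other 4 outside choroid plexus.

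The authors' deposited table marks Th, Dbh and Slc6a2 as significant and not the other 5 genes. The log2 fold changes in the authors' deposited table were -2.95 for Th, -1.99 for Dbh and -2.83 for Slc6a2. These come from the same counts, and so are no second measurement.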

How the data were processed

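RNA sequencing of postnatal day 3 cerebellum gave 1 count column for the control and 1 for the cKO. The authors deposited raw counts of reads per gene and CPM values (scaled to the library total), per the file headers. Each deposited CPM was its count multiplied by a constant of the column (tolerance 0.0001, relative), and 0 reads had been set to 0.5. The authors also deposited a fold ratio, its log2 and p-values with adjusted p-values, made with a tool that the sources do not name. Bowtie2 2.2.3, HTSeq 0.6.0, TopHat2 2.0.12 and mm9 appear, without roles, in the submitters' processing notes. Use of strand during counting is likewise unknown here.

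The counts were scaled with edgeR 4.0.16 (TMM factors 1.01 for the control and 0.990 for the cKO) under R 4.3.3. Ratios and intervals were computed in Python 3.11.15 with numpy 2.4.6, pandas 2.3.3 and scipy 1.17.1, and figures with matplotlib 3.10.9. The calling rule was also run on simulated Poisson counts. These hold no spread between animals or libraries, so that run covers counting error only. Of 22423 genes, 3636 had fewer than 10 reads over both libraries and were not compared. A count of 0 stood at 3 counts per library. The reads carry no stated molecular identifiers and may not be independent molecules. Exon lengths and overlaps came from GENCODE M21 (GRCm38) by Ensembl ID, and no coordinates were converted. Columns left unused numbered 0.

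The 8 genes and all gene lists were chosen with earlier results of these data known. Some list members are not reported here and were left out of the list counts. Genes were named from the 8 genes, Prdm16, the 5 genes nearest in ratio and list genes past the 2-fold rule. List genes of the monoamine, cofactor, breakdown and receptor groups were drawn on if they had at least 10 reads. Up to 2 highest and 2 lowest genes of other lists were also drawn on. Not every gene of these groups is named. Other genes, such as those with under 10 reads, Inppl1, Calb1 and Car8, were chosen after their values were seen. Alternatives were other scalings, read minimums, fold thresholds and interval levels.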

Additional observations from a re-analysis of the deposited data

How the results depend on the processing

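Th, Dbh and Slc6a2 were lower, and Gch1, Ddc, Slc18a2 and Maoa uncalled, under each of the 4 other scalings, the 1.5-fold threshold, 99% intervals and no minimum of reads. A minimum of 50 reads left out Th, so 2 genes were lower, and moved the median log2 ratio of the catecholamine genes from -0.47 to -0.23. With no minimum it was -1.21, because Phox2a then entered. Other scalings shifted every gene by at most 0.03 on the log2 scale. Of 18787 genes compared, 414 were lower and 228 higher. Among the same genes, the 1.5-fold threshold gave 736 lower and 425 higher, and 99% intervals left 119 higher. A minimum of 50 reads gave 176 lower and 55 higher. It compared fewer genes, and their number is not given, so no share is stated for it. Calls of Slc18a1, Drd1 and Drd4 were lost with a minimum of 50 reads and with 99% intervals. The Hox list went from 5 lower to 0 at 50 reads, and its median from -2.17 to -1.47 with no minimum. Both medians include genes with 0 cKO reads, whose ratios depend on a count of 0 standing at 3. No called catecholamine gene changed sign. The median of the other noradrenergic genes went from -0.16 to -0.06 at 50 reads and that of the dopamine receptors from -0.52 to 0.34. Depth limits Phox2a most, and Th had the widest interval of the 7 compared genes. No paired analysis was possible because each genotype has 1 library.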
